A study of Homo sapiens with 8 samples.

Results

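The cadherins, protocadherins and catenins are the genes described here. They were measured in BT549, an established human line derived from a breast carcinoma and classed as triple-negative, which was grown in suspension or attached. Members were the probe sets whose only annotated symbol begins with CDH followed by a number or with PCDH, or names alpha-catenin (CTNNA1, CTNNA2, CTNNA3), beta-catenin (CTNNB1), a delta-catenin (CTNND1, CTNND2) or plakoglobin (JUP). The rule found 70 probe sets of 33297, for 69 genes of the 18417 tested. A further 4 probe sets carry such a symbol together with others and were left out, which leaves CTNND1, the gene of p120-catenin, not analysed here.

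In the suspended group 4 cultures were kept for 24 h on dishes whose poly-HEMA coating prevents cells from adhering, and in the attached group 4 cultures grew on ordinary culture plastic. All 8 cultures received RPMI medium with 10% serum and insulin. The labels give 24 h in one field and 48 h in another for the attached cultures, so culture time and attachment cannot be told apart if the longer time holds. The 4 samples of each group are described as biological replicates of this single line, and a p-value speaks to these cultures only.

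Classical cadherins are calcium-dependent adhesion receptors that bind like partners on the neighbouring cell. Their cytoplasmic tail holds beta-catenin or plakoglobin, which bind alpha-catenin and through it actin filaments, while p120-catenins steady the cadherin at the membrane. Beta-catenin also acts in the nucleus with TCF transcription factors when the complex that marks it for degradation is held off, a step that takes place at the protein level. Protocadherins share the extracellular repeats but lack the catenin-binding tail, and many are encoded in gene clusters and best known from neurons. Breast carcinoma lines of mesenchymal character typically lack E-cadherin (CDH1) and carry N-cadherin (CDH2) or cadherin-11 (CDH11).

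Values are log2 signals, and the medians of the 8 arrays lay between 6.02 and 6.07. The precision is limited by the number of arrays, 4 in each group. In the absence of a background measure, low signal means here a value below 5.28, the 25th percentile over tested genes, and 29 of the 69 genes had a mean below it. The signals of different genes come from different probes and are not compared with each other. Arrays correlated at r = 0.993 to 0.996 among suspended samples, 0.995 to 0.996 among attached samples and 0.987 to 0.994 between the groups. Of 10 mesenchymal markers 5 rose and 1 fell, a called share of 60% beside 20.6% over all genes. SNAI2 (1.23), COL3A1 (0.65), SPARC (0.37), ZEB1 (0.27) and COL1A1 (0.22) were higher and THY1 (−1.13) was lower in suspension. VIM differed by −0.06 (limma adjusted p = 0.386). That list's mean log2 signal ranged from 9.28 to 9.33 over the suspended and 9.08 to 9.14 over the attached arrays, and its part in the results below was not tested. Of the 3 receptors whose low level defines triple-negative tumours, ESR1 and PGR had means below 5.28 and ERBB2 averaged 7.50, and 0 was called by limma or at unadjusted p. Of 12 epithelial markers, 4 of them with means below 5.28 and KRT18 with the highest at 8.14, 0 passed the limma test, at unadjusted p as well, and their mean log2 signal ranged from 5.78 to 5.90 over the suspended and 5.72 to 5.93 over the attached arrays. Of 5 leukocyte markers only CD14 was called (0.22, adjusted p = 0.0467), a call that 13 of 17 alternative settings ended, with PTPRC at a mean of 3.94 and the list's mean log2 signal at 4.97 to 5.14 over the suspended and 4.996 to 5.06 over the attached arrays. All 6 endothelial markers had means below 5.28 and none was called, with a smallest adjusted p of 0.308.

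Kept in suspension, BT549 cells had higher transcript signals for a set of protocadherins, for alpha-catenin and for plakoglobin, and a lower signal for N-cadherin. Of the 69 genes, 14 rose and 1 fell at an adjusted p under 0.05 (limma, p adjusted over all 18417 genes). Over all genes tested, 20.6% were called, 10.4% higher and 10.2% lower. The total of 15 called members, 21.7%, was thus close to that background, while 20.3% of members were called higher. Protocadherins supplied 10 of the 14 rises and cadherins and catenins 2 each. The share called higher was 23.8% of 42 protocadherins, 9.52% of 21 cadherins and 33.3% of 6 catenins. The largest rise was that of PCDH18 (log2 difference 0.93, suspended minus attached) and the fall was that of CDH2 (−0.38). Differences were above 0 for 53 of the 69 genes, with a median of 0.06, against 10582 of 18417 genes and a median of 0.02 overall. For 17 members no value of one group fell within the range of the other, 16 of them higher in suspension, while 24.8% of all genes had groups that did not overlap, 12.7% with suspension higher and 12.2% with it lower. When each array was centred on the median of the tested genes, 35.2% of all calls were higher instead of 50.4%, and among members 11 were higher and 2 lower.

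**Figure D1:**
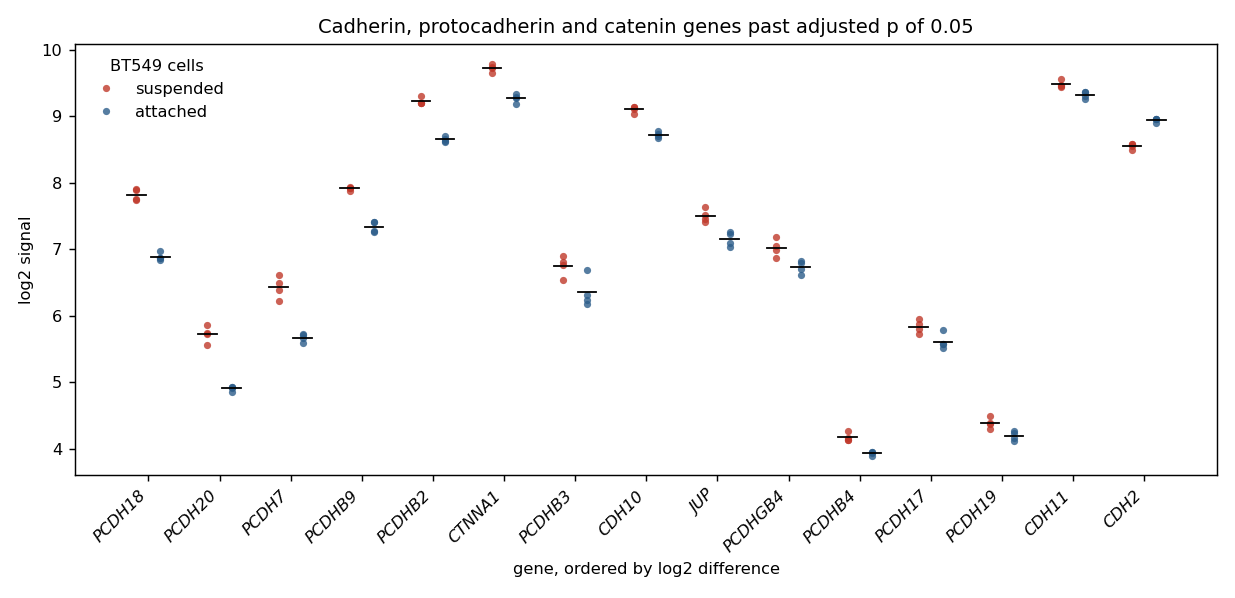
Log2 signal (y axis) of the 15 called genes (x axis, ordered by log2 difference) on each array, suspended in red to the left and attached in blue to the right of each gene, with black bars at the group means (n = 4 each). Groups are apart for 13 of the genes and overlap for PCDHB3 and PCDH17, and CDH2 alone lies lower in suspension.

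**Figure D2:**
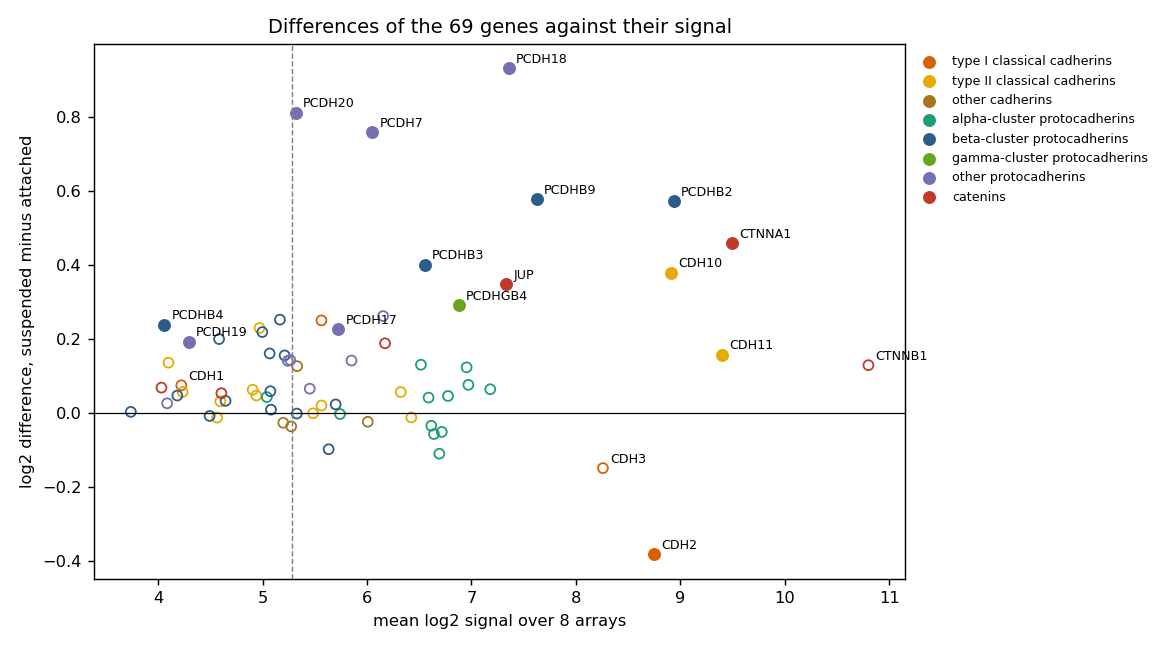
Log2 difference, suspended minus attached (y axis), of the 69 genes against their mean log2 signal over 8 arrays (x axis), coloured by class. Filled points passed adjusted p under 0.05, open points did not, and the dashed line marks 5.28. The 3 largest differences are those of PCDH18, PCDH20 and PCDH7, and CDH2 is the only filled point below 0.

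Protocadherins encoded outside the clusters held the 3 largest rises. They are single genes that act in cell recognition, chiefly in the nervous system. Of 11 such genes 5 rose and 0 fell, also 0 fell at unadjusted p, and the median difference was 0.19. Their called share was 45.5%, beside 20.6% over all genes. PCDH18 (probe set 8102792) had log2 signals of 7.75, 7.88, 7.75 and 7.90 on the suspended arrays, against 6.87, 6.98, 6.84 and 6.87 on the attached arrays. Every suspended value lay above every attached value, and the signal was 1.91-fold higher in suspension (log2 0.93, SE 0.055, limma adjusted p = 6.13e-07).

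PCDH20 (probe set 7971905) gave 5.56, 5.73, 5.75 and 5.85 in suspended cells and 4.86, 4.93, 4.93 and 4.92 in attached cells. The groups were apart, and the difference was 0.81 (SE 0.062, adjusted p = 4.25e-06 by limma), a ratio of 1.75. Its attached mean, 4.91, lies below the low-signal mark, where the size of a ratio is less certain. PCDH7 (probe set 8094520), whose product is known to bind protein phosphatase 1, gave 6.23, 6.39, 6.49 and 6.62 in suspension and 5.71, 5.59, 5.72 and 5.66 when attached. Here too all suspended arrays were higher, by 0.76 on average (SE 0.075, limma adjusted p = 3.29e-05), although they spread more widely (SD 0.16) than the attached arrays (SD 0.061).

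Smaller rises were called for PCDH17 and PCDH19, and neither was stable. PCDH17 averaged 5.84 ± 0.097 in suspended and 5.61 ± 0.12 in attached cells (SD, n = 4 each), with overlapping groups, a difference of 0.22 and a limma adjusted p of 0.0373. That call ended in 10 of 17 alternative settings, 5 of which were fits without a single array, in the suspended group 3 or 4 and in the attached group 1, 3 or 4 (largest adjusted p 0.103). PCDH19, an X-linked gene in which mutations cause epilepsy, averaged 4.39 ± 0.085 in suspended and 4.20 ± 0.064 in attached cells (difference 0.19, limma adjusted p = 0.0312), and lost its call in 9 of 16 settings, 6 of them fits that dropped suspended array 2, 3 or 4 or attached array 1, 3 or 4 (largest adjusted p 0.0947). Both its means lie below 5.28. The other 6 genes, PCDH1, PCDH8, PCDH9, PCDH10, PCDH12 and PCDH15, had differences from 0.03 to 0.26 and adjusted p of 0.0573 or more, and for PCDH1 and PCDH8 the groups did not overlap.

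The clustered protocadherins lie side by side on chromosome 5 in the alpha, beta and gamma clusters, and each neuron is known to use its own small choice of them. Alpha and gamma genes have a variable first exon of their own joined to shared last exons, whereas beta genes consist of a single exon. Of 18 beta-cluster entries, 2 of them the pseudogenes PCDHB17P and PCDHB18P, 4 rose and 0 fell, with 0 falls at unadjusted p and a median difference of 0.11. The called share of 22.2% was near the 20.6% over all genes in both directions. All these calls were rises, and 10.4% of all genes were called higher. Groups did not overlap for 16.7% of these entries, each with suspension higher. Over all genes the groups did not overlap for 24.8%, and for 12.7% with suspension higher. The rises were those of PCDHB2, PCDHB3 and PCDHB4, which are neighbours near the start of the cluster, and of PCDHB9. Beta genes resemble each other in sequence, and whether probes of one picked up transcripts of another was not tested.

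The promoters of these genes are shown because those of the called and the uncalled beta genes carry the same short element. Clustered protocadherin promoters are known for a conserved element with the core CGCT. The run of 9 bases found in the most beta-cluster promoters was GGTGGCGCT, searched on both strands in RefSeq promoters (build GRCh38.p14) that span the bases before and just after each gene start. Of the 69 members 51 had a promoter in that table, 14 of them beta genes. This exact run, called the element below, was in 13 of the 14 beta promoters and in 0.501% of all 35116 promoters. It was in 0 of 10 alpha and 0 of 25 gamma promoters. These gamma promoters belong to 20 genes, while PCDHGB4 is the single gamma-cluster member. The run was chosen for being in the most beta promoters, so its high share there was set by that choice. Other forms of the conserved element were not searched, so these counts do not tell whether alpha and gamma promoters carry one. The windows below read 5′ to 3′ on the plus strand, with this element in capitals, first for the 4 genes that rose and then for 4 that were not called, chosen among those whose window lies wholly before the gene start; the window of PCDHB1, which has no match, ends at its gene start.
PCDHB2, chr5:141094525-141094593: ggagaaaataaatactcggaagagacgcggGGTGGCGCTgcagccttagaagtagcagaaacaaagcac
PCDHB9, chr5:141187055-141187123: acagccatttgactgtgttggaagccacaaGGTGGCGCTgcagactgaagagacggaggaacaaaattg
PCDHB3, chr5:141100374-141100442: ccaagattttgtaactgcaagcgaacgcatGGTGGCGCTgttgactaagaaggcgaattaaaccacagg
PCDHB4, chr5:141121704-141121772: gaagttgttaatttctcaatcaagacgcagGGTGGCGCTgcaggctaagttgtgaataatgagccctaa
PCDHB7, chr5:141172547-141172615: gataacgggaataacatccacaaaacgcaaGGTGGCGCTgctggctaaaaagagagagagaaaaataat
PCDHB16, chr5:141182291-141182359: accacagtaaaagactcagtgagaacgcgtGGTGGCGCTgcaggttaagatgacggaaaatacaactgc
PCDHB15, chr5:141245295-141245363: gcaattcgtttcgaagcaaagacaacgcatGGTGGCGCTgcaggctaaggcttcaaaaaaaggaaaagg
PCDHB1, chr5:141051305-141051373: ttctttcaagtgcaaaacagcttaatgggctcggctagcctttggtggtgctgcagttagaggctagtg
Counted from the gene start, the element begins at −60 in PCDHB2, −76 in PCDHB9, −69 in PCDHB3 and −84 in PCDHB4, and at −67, −66 and −70 in PCDHB7, PCDHB16 and PCDHB15. Among the other uncalled genes it begins at −65 in PCDHB12 and −69 in PCDHB14. In the rest it lies nearer to the start, at −43 in PCDHB10 and PCDHB13, −16 in PCDHB5 and −2 in PCDHB8. Of the 13 beta genes with the element 4 rose and 9 were not called, while 20.6% of all genes were called, 10.4% higher. Only PCDHB1 lacks the element, so beta genes with and without it cannot be compared.

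Among these genes PCDHB2 (probe set 8108683) had log2 signals of 9.19, 9.20, 9.20 and 9.30 in suspended cells and 8.66, 8.63, 8.70 and 8.62 in attached cells. PCDHB9 (probe set 8108720) had 7.88, 7.91, 7.94 and 7.92 in suspension, against 7.26, 7.41, 7.27 and 7.41 when attached. For both genes the groups were well apart: PCDHB2 rose by 0.57 (SE 0.047, limma adjusted p = 7.39e-06) and PCDHB9 by 0.58 (SE 0.051, limma adjusted p = 1.33e-05), each a ratio of 1.49. PCDHB3 gave 6.76, 6.89, 6.54 and 6.81 in suspended cells, against 6.31, 6.24, 6.18 and 6.68 in attached cells, with the highest attached array above the lowest suspended array. Its rise of 0.40 (SE 0.11, limma adjusted p = 0.0207) lost the call in 7 of 18 settings, 6 of which left out a single array, each except attached replicate 4 and suspended replicate 3 (adjusted p of 0.0510 to 0.0657). PCDHB4 rose by 0.24 (limma adjusted p = 0.00376) with groups apart, but its means of 4.18 ± 0.060 in suspended and 3.94 ± 0.028 in attached cells lie below the low-signal mark.

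The 14 uncalled beta entries ranged from −0.10 (PCDHB7) to 0.25 (PCDHB5), with adjusted p of 0.0722 or more, and 11 of them had means below 5.28. PCDHB5, next to PCDHB4 in the cluster, averaged 5.29 ± 0.13 in suspended and 5.04 ± 0.18 in attached cells, with overlapping groups. The single gamma-cluster member, PCDHGB4, had 6.86, 7.18, 6.99 and 7.05 in suspended cells, against 6.82, 6.79, 6.70 and 6.61 in attached cells. Its groups were apart, and it rose by 0.29 (SE 0.072, limma adjusted p = 0.0137). Whether probes of the alpha and gamma genes read the shared last exons, or transcripts of related genes, was not tested. None of the 12 alpha-cluster genes was called by limma, with 0 also at unadjusted p, differences of −0.11 to 0.13 and a smallest adjusted p of 0.331. Of these 11 had means above 5.28. PCDHA2 has a second probe set, which differed by 0.13 where the brighter differed by 0.04, and neither passed the test (adjusted p = 0.240 and 0.698 over all probe sets).

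**Figure D3:**
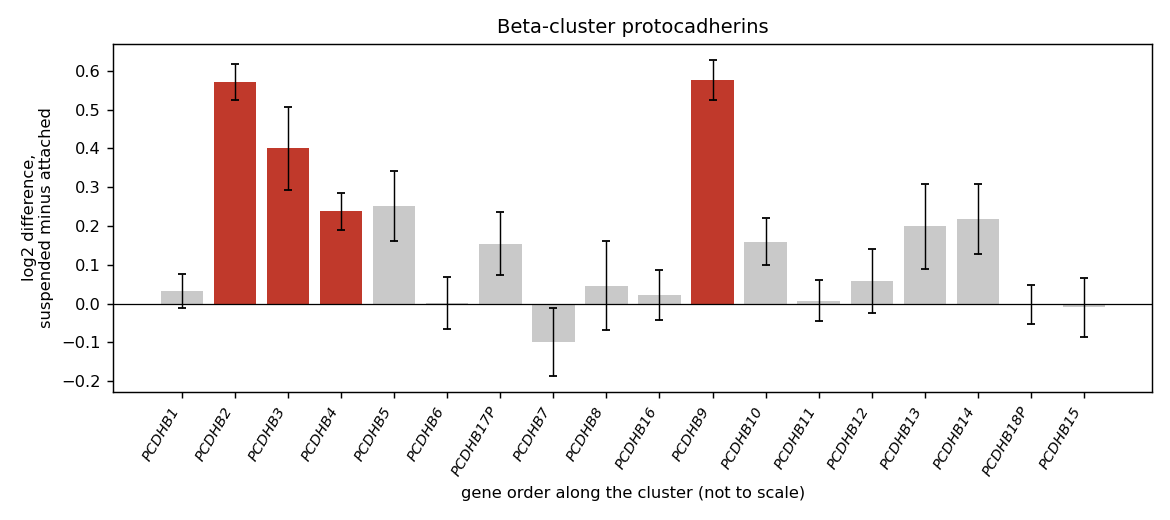
Log2 difference, suspended minus attached (y axis), of the 18 beta-cluster entries in their order along chromosome 5 (x axis, not to scale). Bars are limma estimates with 1 SE, and red bars passed adjusted p under 0.05. PCDHB2, PCDHB3, PCDHB4 and PCDHB9 rose, and the entries between PCDHB4 and PCDHB9 did not pass.

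Among the classical cadherins, the N-cadherin signal fell and those of cadherin-10 and cadherin-11 rose. Type I cadherins include those of epithelium, muscle and mesenchyme, and of 4 measured 1 fell and 0 rose, while 1 rose and 2 fell at unadjusted p. That is a called share of 25%, beside 20.6% over all genes. CDH2 (probe set 8022674), the N-cadherin of neural and mesenchymal cells, gave 8.50, 8.58, 8.56 and 8.59 in suspended cells and 8.89, 8.96, 8.95 and 8.96 in attached cells. All suspended arrays were lower, and the difference of −0.38 (SE 0.045, limma adjusted p = 0.000104) is a ratio of 0.767.

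CDH3, the P-cadherin of basal breast epithelium, averaged 8.18 ± 0.074 in suspended and 8.33 ± 0.055 in attached cells. Its difference of −0.15 (95% interval −0.27 to −0.03) did not pass the test (limma adjusted p = 0.0671), though it did in 5 of 18 settings, among them centring on the median of the tested genes (−0.20) and leaving out suspended replicate 2 (−0.18). CDH1, the E-cadherin of epithelium, had 4.20, 4.24, 4.19 and 4.41 in suspended cells, against 4.27, 4.17, 4.17 and 4.13 in attached cells. These signals are below the low-signal mark in both groups, and the difference of 0.07 (95% interval −0.06 to 0.20, limma adjusted p = 0.425) did not pass. CDH15, the M-cadherin of muscle, differed by 0.25 (95% interval 0.03 to 0.47, limma adjusted p = 0.106), and its suspended replicate 4, at 6.01, stood above the other suspended arrays at 5.48 to 5.64. Without suspended replicate 2 this difference was 0.32 and passed the test (limma adjusted p = 0.0418).

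Of 13 type II cadherins, which bind with a different adhesive interface, 2 rose and 0 fell, with 0 falls at unadjusted p and a median difference of 0.06. Their called share was 15.4%, below the 20.6% over all genes in both directions. These calls were rises only, and 10.4% of all genes were called higher. CDH10 (probe set 8111255), best known from brain, had 9.04, 9.13, 9.10 and 9.13 in suspended cells and 8.73, 8.78, 8.67 and 8.70 in attached cells. The groups were apart and the rise of 0.38 (SE 0.047, limma adjusted p = 0.000161) kept its call in all 18 alternative settings. CDH11 (probe set 8001800), the cadherin of osteoblasts and other mesenchymal cells, had 9.43, 9.48, 9.45 and 9.55 in suspension, against 9.37, 9.25, 9.30 and 9.37 when attached. Its groups were apart by a narrow margin. The rise of 0.16 (SE 0.049, limma adjusted p = 0.0440) lost its call when any single array was left out (adjusted p of 0.0503 to 0.113) and in 12 of 18 settings in all. The 11 other type II genes, CDH5 of endothelium among them, had differences of −0.01 to 0.23, and 7 of them had means below 5.28. CDH8 had the smallest adjusted p of these (0.0539), with groups that did not overlap.

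The 4 remaining cadherins, CDH16, CDH17, CDH23 and CDH26, do not belong to the classical types. None was called by limma, with 0 at unadjusted p, and their differences lay between −0.04 and 0.13.

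Among the catenins the signals of alpha-catenin and plakoglobin rose, and all 6 differences were above 0. Of 6 measured genes 2 rose and 0 fell, with 4 higher and 0 lower at unadjusted p and a median difference of 0.16. The called share was 33.3%, beside 20.6% over all genes. CTNNA1 (probe set 8108378), the alpha-catenin that couples the complex to actin, had 9.79, 9.73, 9.65 and 9.74 in suspended cells and 9.19, 9.28, 9.27 and 9.33 in attached cells. The groups were apart, and the difference of 0.46 (SE 0.051, limma adjusted p = 7.31e-05) is a ratio of 1.37. JUP (probe set 8015412), the plakoglobin of adherens junctions and desmosomes, gave 7.42, 7.51, 7.45 and 7.64 in suspension, against 7.04, 7.23, 7.26 and 7.10 when attached. Again no attached array reached a suspended value, and the rise was 0.35 (SE 0.066, limma adjusted p = 0.00294), a ratio of 1.27. CTNNA1 and JUP kept their calls in all 18 settings.

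CTNNB1 (probe set 8079021), the beta-catenin, had 10.81, 10.87, 10.89 and 10.88 in suspended cells and 10.75, 10.75, 10.71 and 10.74 in attached cells. The groups did not overlap, but the difference of 0.13 (95% interval 0.03 to 0.22) did not pass the test (limma adjusted p = 0.0556). It passed in 6 of 18 settings, one of them without suspended replicate 1 (adjusted p = 0.0482), and the difference ranged from 0.08 after centring on the median of tested genes to 0.19 after quantile normalization. CTNND2, the neural delta-catenin, differed by 0.19 (95% interval 0.03 to 0.35, limma adjusted p = 0.0940) and passed without suspended replicate 2 (0.23, adjusted p = 0.0464). The alpha-catenins of neurons, CTNNA2, and of heart and testis, CTNNA3, differed by 0.05 and 0.07 with adjusted p of 0.519 and 0.489, and both had means below 5.28.

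Genes that work with cadherins and catenins were followed in 7 lists, whose shares of called genes stand beside 20.6% over all genes. The share was 44.4% for repressors, 45.5% for proteases and 36.8% for nuclear partners and targets of beta-catenin. It was 24.0% for junction partners, 23.5% for the distant superfamily, 20% for the degradation complex with its regulators and 18.2% for the desmosome. The last 4 lists lay near the background. Among transcription factors that repress E-cadherin, 4 of 9 rose and 0 fell, with 5 higher and 0 lower at unadjusted p and a median difference of 0.16. SNAI2, the Slug repressor, averaged 11.2 ± 0.056 in suspended and 10.0 ± 0.028 in attached cells (difference 1.23, limma adjusted p = 2.76e-08). TWIST2 (0.35), ZEB1 (0.27) and ZEB2 (0.19) also rose, and ZEB2 lost its call in 7 of 18 settings, with a difference of only 0.05 (adjusted p = 0.473) when its probe sets were averaged. CDH1 itself was at a low signal in both groups, as given above.

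Snail and ZEB factors bind the E-box CACCTG, which was searched on both strands. It was in 20.6% of all 35116 promoters and in 4 of the 46 promoters of members outside the clusters (8.70%). Those 46 promoters belong to 26 genes. CDH1, CDH11 and PCDH20 had no promoter among them and were not searched. The 4 with a match were promoters of PCDH1, PCDH15, CDH23 and JUP. Of these genes only JUP was called, and its other promoter in the table had no match. The listed promoters of PCDH7, PCDH17, PCDH18, PCDH19, CDH2, CDH10 and CTNNA1 had none. A match or its absence in these windows is a description of the letters only.

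Of 25 junction partners of the cadherin and catenin complex 1 rose, 5 fell and 19 were not called. AJUBA, a LIM protein at junctions that restrains Hippo signalling, averaged 6.44 ± 0.11 in suspended and 7.35 ± 0.19 in attached cells (−0.91, limma adjusted p = 3.31e-05). CTNNAL1, an alpha-catenin relative, fell by 0.55, the p120-related PKP4 by 0.28, and the scaffold IQGAP1 rose by 0.30. Of 11 desmosome genes the cadherin DSC2 (0.42) and the plaque protein DSP (0.26) rose and 0 fell. For DSP the suspended mean was 5.17 and the attached mean 4.91, both below 5.28.

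Among 17 more distant members of the superfamily 3 rose and 1 fell. FAT4, a giant cadherin of planar polarity, averaged 6.97 ± 0.074 in suspended and 7.60 ± 0.034 in attached cells (−0.63, limma adjusted p = 6.13e-06). FAT1 rose by 0.22, and the rises of CELSR3 (0.16) and CLSTN3 (0.28) were lost in 14 and 11 of 17 settings. Of 11 enzymes known to cleave or mature cadherins 4 rose and 1 fell. ADAM10, the main sheddase of classical cadherins, rose by 0.36 (limma adjusted p = 0.000582), the convertase FURIN by 0.41, MMP14 by 0.27 and the gamma-secretase subunit NCSTN by 0.21, and MMP9 fell by 0.58.

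In the list of the complex that targets beta-catenin for degradation, regulators included, 3 of 15 genes rose and 0 fell. These were the tankyrases TNKS2 (0.26) and TNKS (0.24), which act against AXIN, and the kinase GSK3B (0.23, limma adjusted p = 0.00368). Of 19 nuclear partners and targets of beta-catenin 4 rose and 3 fell. TNFRSF19 rose by 1.24 (limma adjusted p = 9.38e-08) and the transcription factor TCF7L2 by 0.39, while the Wnt antagonist DKK1 (−0.53) and the cyclin CCND1 (−0.42) fell. The other 3 called were BCL9, a beta-catenin cofactor (0.31), and NOTUM, a secreted Wnt deacylase (0.38), both higher, and MYC (−0.40), which was lower. The remaining 12 were not called, AXIN2, a feedback target, among them (−0.01, limma adjusted p = 0.911).

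**Figure D4:**
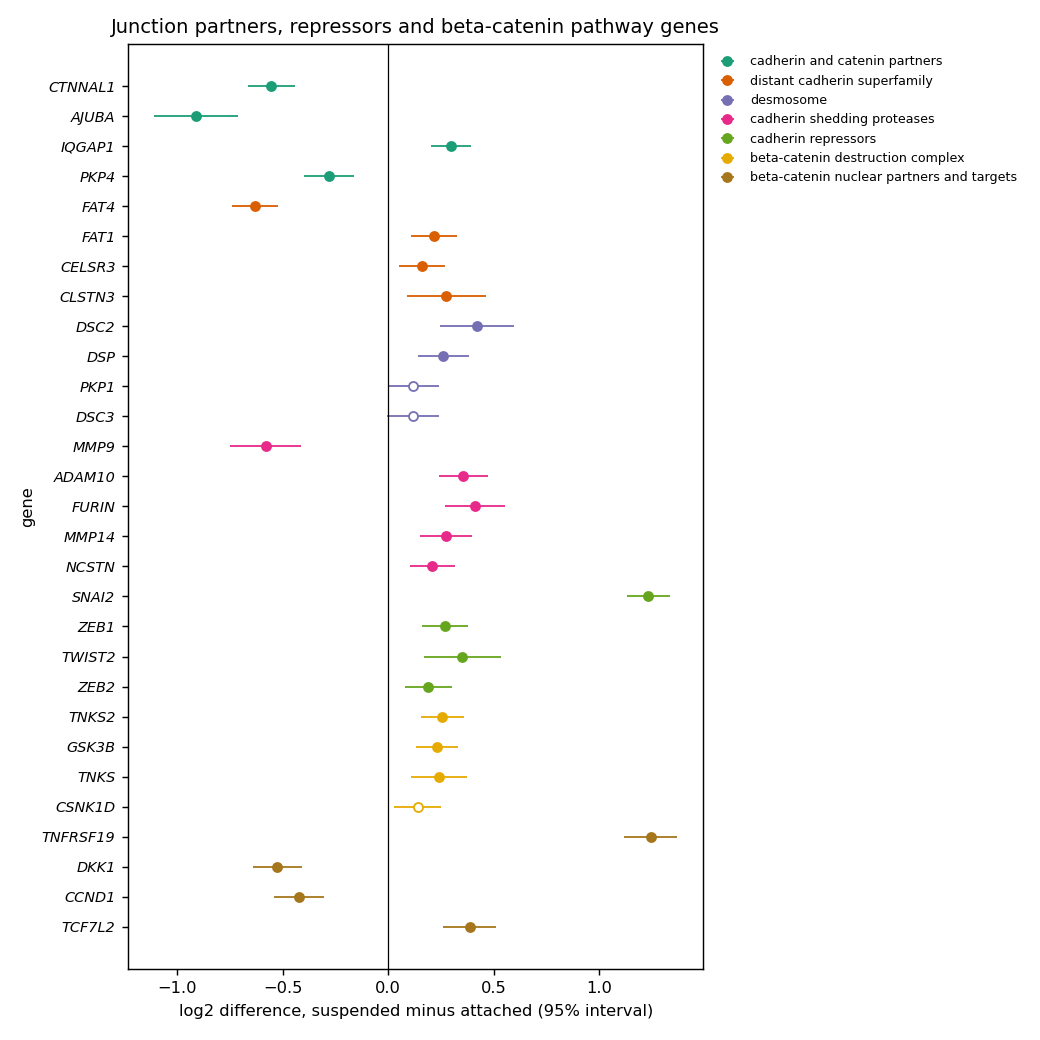
Log2 difference, suspended minus attached, with its 95% interval (x axis) for the named genes of the 7 lists (y axis), coloured by list. Filled points passed adjusted p under 0.05. SNAI2 (1.23) and TNFRSF19 (1.24) lie furthest to the right and AJUBA (−0.91) furthest to the left.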

How the data were processed

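The deposited table holds log2 signals for 33297 probe sets on 8 arrays. That the scale is log2 was read from the range of the values. Total RNA was labelled with a FlashTag biotin kit, per the labels' protocols. Partek is the only tool in the submitters' processing notes. Its version, background correction and normalization were not given in the sources used here.

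Of the probe sets 19460 had 1 symbol in the platform annotation. The brightest probe set of each symbol stood for the gene, which left 18417 genes. All 69 members matched RefSeq by gene ID. The test of suspended against attached cultures (4 arrays each) was limma's moderated two-sided one, without covariates (version 3.58.1, R 4.3.3; lmFit and eBayes), with Benjamini-Hochberg adjustment over all 18417 genes and a threshold of 0.05. SE is limma's moderated standard error. The pipeline was tested on simulated data. Tables and plots used Python 3.11.15, pandas 2.3.3, scipy 1.17.1 and matplotlib 3.10.9.

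The members and the lists of related genes were chosen with earlier results of these data known, and no list was tested as a set. Named by rule were all called members, all catenins and type I cadherins, members differing by 0.3 or more, the 5 brightest members, and from each list the 4 genes lowest in adjusted p, or all called where 5 or fewer were. Other genes named were chosen after their values were seen. Alternatives were a replicate block, quantile normalization, centring on the median of probe sets or of tested genes (the last chosen after seeing the data), filters on low signal, averaged probe sets, all probe sets tested, an intensity trend, array weights, and leaving out each array.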

Additional observations from a re-analysis of the deposited data

Results flagged for a closer look

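In 232 groups of 4 arrays, for members and named genes, 17 had a highest or lowest array far from the other 3, given here as its gap to the nearest array over the range of the group. Chance alone gives such a flag in about 1 of 20 groups. In suspended cells the high arrays were PCDHB2 in replicate 4 (0.939, 9.30 against at most 9.20), CDH8 in replicate 3 (0.8729), CDH18 in replicate 3 (0.8992), THY1 in replicate 2 (0.961) and PGR in replicate 1 (0.8683). The low ones there were PCDHA1 in replicate 1 (0.8424) and FAT4 in replicate 2 (0.8294). In attached cells the low arrays were CDH2 in replicate 1 (0.9341, 8.89 against at least 8.95), PCDH20 in replicate 1 (0.8477), PCDH8 in replicate 3 (0.9453), CDH22 in replicate 3 (0.9101), CDH12 in replicate 2 (0.8724), DSP in replicate 3 (0.883) and MMP14 in replicate 1 (0.8406). The high ones were PCDH9 in replicate 4 (0.9292), CD14 in replicate 2 (0.8607) and CD3E in replicate 1 (0.8378). The differences of PCDHB2, PCDH20 and CDH2 kept their calls when any single array was left out.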

How the results depend on the processing

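The number of called members was 11 to 18 over all alternatives and 11 to 17 with 1 array left out, against 15 as reported. Over all genes 2934 to 3752 were called with 1 array left out, against 3787, and 30 to 36 of the related genes, against 36. Of the 15 called members 11 kept their call in every alternative that tested them, and CDH11, PCDH17, PCDH19 and PCDHB3 did not. Filters on low signal left 40 and 23 members to test. With the replicate number as a block 14 members and 3022 genes were called, and CDH11 and PCDH17 lost their calls. Deviations of same-numbered arrays correlated at −0.198 to 0.042 and no suspended array correlated best with the attached array of its number, so the numbers were not taken as pairs. Of 1197 values of 69 named genes under alternatives 1093 kept direction and side of the threshold, 83 lost and 17 gained the call, and 4 changed sign, none of them of a called gene: ERBB2 (−0.00069) and CD2 (−0.018) after centring on the median of tested genes, CD2 without suspended replicate 1 (−0.020, up to 0.064 without another array) and CLDN7 without suspended replicate 4 (−0.028, up to 0.094 without another array). The causes were not tested. Without a background measure, ratios of low signals carry no statement of transcript amounts.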
